A study of Mus musculus with 66 samples.

Results

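The genes described here are 10 inducible folding genes of the endoplasmic reticulum (ER): Hspa5, which encodes the ER chaperone BiP, with Hsp90b1, Hyou1, Dnajb11, Sdf2l1, Manf, Creld2, Pdia4, Pdia6 and Calr. They are 10 of the 45706 Ensembl gene identifiers measured. The list was chosen by measured values of these data, namely lower expression of ER folding genes in the brain hemi-sections and spinal cords of Rorb mutant mice than in controls, so the mutant comparisons in those tissues are given below as a description. Counts of listed genes called there follow from the choice of the list, stand beside the share of all genes only for scale and support nothing. By their labelled identifiers and ages the dissected brain regions came from other mice. The paper's methods instead describe dissecting regions from the other side of the sagittally cut h5 brains. Tests are given there, although the list was drawn up with results of all 66 libraries known and its independence of the regional values is not shown. The comparisons of strains, of wild-type cord with brain, of sexes and of the alleles with each other are other contrasts of libraries whose values chose the list, and are given as a description too. All 10 genes passed the low-count filter in every comparison, and the lowest level of any of them in any library was 7.47 TPM for Sdf2l1, TPM being transcripts scaled to length and library.

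Rorb encodes RORβ, an orphan nuclear receptor of neurons and retina, and the mutants carried spontaneous alleles that arose at The Jackson Laboratory, all homozygous. Polyadenylated RNA was sequenced from 66 tissue samples of 30 mice in 20 groups, with 3 mice in each group and 4 in those of the h2, h3 and h4 alleles. The brain hemi-section and spinal cord came from the same mice, aged 7.9 to 9.6 weeks, and the cortex, hippocampus and cerebellum, by their labels, from other mice, aged 7 weeks. Rorb h1/h1 (a duplication that takes in the first exon specific to the Rorb1 transcript) was on C57BL/6J. The alleles h2 and h3, also homozygous, arose on B6(Cg)-Tyr c-2J/J, an albino form of C57BL/6J, and their causal changes were not identified. Rorb h4/h4 (a nonsense allele) arose on B6.129S7-Il1r1 tm1/mx/J. Rorb h5/h5 (loss of the Rorb1 start codon) was on DBA/1J. The first 4 alleles were all set against the same 3 C57BL/6J wild types in each tissue, so their comparisons share controls. For h1 these are its own background strain and identifier series, while h2, h3 and h4 were not set against their founding strains, so for them allele, founding strain and colony cannot be told apart. The C57BL/6J and h1 mice were 8.0 weeks old, the h2 mice 7.9 to 9.4 and the h3 mice 8.0 to 9.6. The h4 mice were 8.4 to 8.6 weeks old, all older than their controls, so for h4 age cannot be told apart either. Each allele is a single line, and Rorb h5/h5 was compared with DBA/1J wild types. The homozygous mutants are called h1, h2, h3, h4 and h5 below.

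Library totals lay between 32889755 and 59120536 expected counts, with a median of 42391893. Markers followed the labelled tissues, with exceptions. Hoxc10, a posterior body-axis gene, was at 43.1 to 56.0 TPM in the spinal cords and at most 0.09 TPM elsewhere. Hoxb8, at 78.8 to 105 TPM in cord, reached 5.97 TPM in a brain library. Tbr1 was at 62.5 to 81.8 TPM in cortex and at most 41.2 TPM elsewhere. Lct and Prox1 were at 6.59 to 14.4 and 26.5 to 32.9 TPM in hippocampus, against at most 1.72 and 22.8 TPM elsewhere. Of the other hippocampus markers, Wfs1 (24.7 to 74.9 TPM) overlapped cortex and Zbtb20 (75.2 to 103 TPM) overlapped cerebellum. Gabra6, a gene of cerebellar granule cells, was at 656 to 838 TPM in cerebellum and at most 0.41 TPM in cortex, hippocampus and spinal cord. DBA/1J brain replicate 1 stood apart: its 4 cerebellum markers summed to 22.1 TPM against 441 to 463 TPM in the other DBA/1J hemi-sections. Values without this library are given beside the results that rest on it. The 3 libraries of 1 regional h5 mouse went against their labelled sex. Rorb itself was at 10.99 to 13.1 TPM in C57BL/6J brain, 7.3 to 7.8 in h1, 5.8 to 6.6 in h2, 11.1 to 11.8 in h3 and 2.6 to 3.6 in h4. In DBA/1J brain Rorb was at 10.6 to 13.8 TPM and in h5 brain at 15.4 to 18.2 TPM, so its transcript level separates from the controls in some alleles and not in others.

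The ER folds and glycosylates proteins bound for the membrane and for secretion, which neurons and glia make in quantity. When unfolded proteins build up there, the sensors Atf6, Ire1 and Perk are released from BiP and start the unfolded protein response, in which the factors Atf6 and spliced Xbp1 bind ER stress elements in the promoters of chaperone genes and raise their transcription. BiP is the central chaperone of this network and is widely used as a gauge of its activity.

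The promoters are shown because the ER stress element is the sequence by which these genes are classically recognised as a group. In the RefSeq table of GRCm38.p6, 8 of the 10 genes had a promoter, and Hyou1 and Manf did not. In GRCm38 the genes lie at chr2:34772090-34776529 (Hspa5), chr10:86690841-86705444 (Hsp90b1), chr9:44379490-44392369 (Hyou1), chr16:22857845-22879634 (Dnajb11), chr16:17130138-17132383 (Sdf2l1), chr9:106888753-106891938 (Manf), chr15:88819646-88826681 (Creld2), chr6:47796141-47813512 (Pdia4), chr12:17266589-17284785 (Pdia6) and chr8:84842088-84846931 (Calr). The window ran from 250 bases before the start to 50 bases after it. The 3 motifs searched on both strands were the ER stress element, which is CCAAT, any 9 bases and CCACG, its second form ERSE-II, which is ATTGG, any 1 base and CCACG, and the core of the unfolded protein response element, TGACGTG. Capitals mark the matches in these 250 bases before the start of Hspa5 (chr2:34771840-34772089, plus strand), Hsp90b1 (chr10:86705445-86705694, minus strand) and Sdf2l1 (chr16:17132384-17132633, minus strand), read 5′ to 3′ along the gene. Hspa5 and Hsp90b1 are the best-studied chaperones of the list, and Sdf2l1 is the gene with the largest shift below.
Hspa5: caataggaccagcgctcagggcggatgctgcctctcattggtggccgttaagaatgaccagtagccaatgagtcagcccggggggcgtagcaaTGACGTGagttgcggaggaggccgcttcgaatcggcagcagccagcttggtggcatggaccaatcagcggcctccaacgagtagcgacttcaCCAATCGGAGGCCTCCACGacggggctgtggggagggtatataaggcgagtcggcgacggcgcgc
Hsp90b1: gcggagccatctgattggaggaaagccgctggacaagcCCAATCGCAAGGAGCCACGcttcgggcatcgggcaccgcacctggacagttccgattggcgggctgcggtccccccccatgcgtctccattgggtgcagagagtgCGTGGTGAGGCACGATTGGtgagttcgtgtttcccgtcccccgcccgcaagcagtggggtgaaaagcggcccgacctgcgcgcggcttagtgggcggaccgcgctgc
Sdf2l1: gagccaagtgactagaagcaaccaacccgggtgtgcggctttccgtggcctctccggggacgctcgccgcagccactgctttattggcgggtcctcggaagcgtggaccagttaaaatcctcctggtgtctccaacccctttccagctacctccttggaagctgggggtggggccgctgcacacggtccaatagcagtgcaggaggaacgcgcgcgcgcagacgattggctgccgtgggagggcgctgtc

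Hspa5 held an ER stress element at -65 to -47 bases from its start and TGACGTG at -157 to -151. Hsp90b1 held 2 ER stress elements, at -212 to -194 and, on the opposite strand, at -107 to -89, and Sdf2l1 held none of the 3 motifs. Single matches were found in Dnajb11 (ERSE-II, chr16:22857842-22857872, plus strand) and, as ER stress elements, in Creld2 (chr15:88819510-88819548, plus strand), Pdia6 (chr12:17266481-17266519, plus strand) and Calr (chr8:84847065-84847103, minus strand), printed here in capitals with 10 flanking bases on each side.
Dnajb11: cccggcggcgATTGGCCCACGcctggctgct
Creld2: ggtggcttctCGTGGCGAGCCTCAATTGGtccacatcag
Pdia6: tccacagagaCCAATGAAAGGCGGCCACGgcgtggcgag
Calr: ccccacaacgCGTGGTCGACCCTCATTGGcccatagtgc

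Pdia4 held none of the 3 motifs. The ER stress element was thus found in 5 of the 8 promoters, against 0.119% of the 32851 promoter windows in the table, ERSE-II in 1 of 8 against 0.0365%, and TGACGTG in 1 of 8 against 2.01%. Among other ER folding genes outside the list, 3 of 21 with a promoter held the ER stress element, and among paralogs and relatives of the listed genes 0 of 7 did. A match describes these letters only, and a promoter without one may still be bound.

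**Figure D1:**
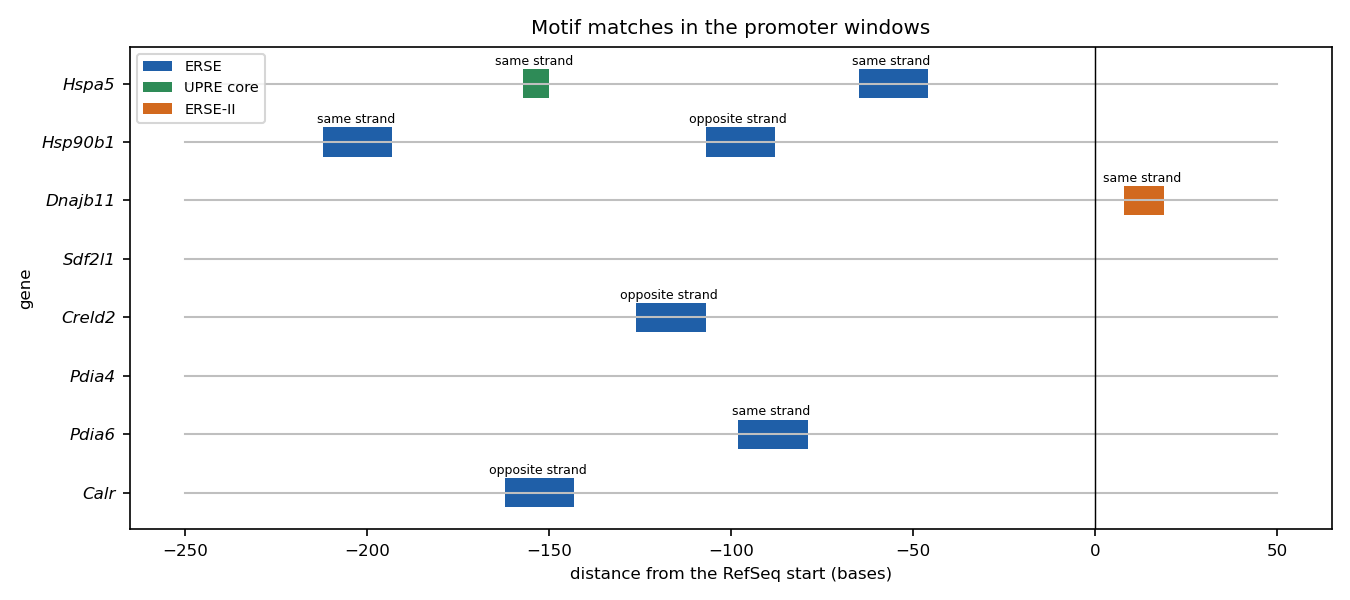
Motif matches in the promoters of the 8 genes with a RefSeq window; the horizontal axis is the distance in bases from the start, each grey line is 1 promoter with 250 bases before and 50 after the start, and coloured boxes are matches with their strand relative to the gene. ER stress elements are drawn for Hspa5, Hsp90b1, Creld2, Pdia6 and Calr, ERSE-II for Dnajb11, and no box for Sdf2l1 or Pdia4.

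In the 4 alleles compared with C57BL/6J, every listed gene was lower in both tissues, and the size of the shift differed by gene. Over the 8 comparisons Hspa5 was 25.4% to 38.7% lower, Sdf2l1 28.4% to 49.4% lower and Hyou1 9.27% to 22.0% lower. Sdf2l1 had the largest decrease of the 10 genes and Hyou1 the smallest in 8 of 8 comparisons. These are the contrasts that chose the list, and values are fitted log2 fold changes (edgeR) with their standard errors (SE).

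Hspa5, an Hsp70 chaperone that binds unfolded chains in the ER lumen, was at 264, 251 and 344 TPM in the 3 C57BL/6J brains. It was at 179, 206 and 227 TPM in h1 brain and at 216, 195, 183 and 171 TPM in h2 brain. It was at 158, 165, 199 and 182 TPM in h3 brain and at 168, 181, 174 and 166 TPM in h4 brain. All 15 mutant hemi-sections lay below all 3 controls, and the highest control was 1 mouse, replicate 3. In bulk tissue, fewer cells rich in an RNA and less of that RNA per cell cannot be told apart. The log2 fold changes of Hspa5 in brain were -0.47 (SE 0.11) in h1, -0.57 (SE 0.10) in h2, -0.71 (SE 0.10) in h3 and -0.70 (SE 0.09) in h4.

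In spinal cord Hspa5 was at 261, 241 and 347 TPM in C57BL/6J. It was at 186, 182 and 204 TPM in h1 and at 221, 209, 172 and 184 TPM in h2. It was at 174, 191, 159 and 186 TPM in h3 and at 175, 170.0, 174 and 180.0 TPM in h4. Again the highest mutant lay below the lowest control, and the same mouse gave the highest control value. The log2 fold changes of Hspa5 in cord were -0.42 (SE 0.09), -0.49 (SE 0.09), -0.61 (SE 0.09) and -0.61 (SE 0.09) from h1 to h4.

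Sdf2l1, an ER-resident protein that works with BiP and its DnaJ partners, was at 19.6, 18.7 and 23.8 TPM in C57BL/6J brain. It was at 12.02, 11.4 and 11.6 TPM in h1, at 13.2, 10.9, 12.7 and 11.1 TPM in h2, at 9.34, 9.09, 11.4 and 11.8 TPM in h3, and at 12.2, 11.1, 10.6 and 11.5 TPM in h4. The mutant values did not overlap the controls in any allele. The brain log2 fold changes of Sdf2l1 were -0.81 (SE 0.13), -0.77 (SE 0.12), -0.98 (SE 0.13) and -0.82 (SE 0.11) in h1, h2, h3 and h4. In cord its controls were at 21.4, 19.7 and 31.6 TPM and the 15 mutants at 9.99 to 17.4 TPM, with a median of 13.4. The cord log2 fold changes of Sdf2l1 were -0.48 (SE 0.13), -0.76 (SE 0.12), -0.98 (SE 0.16) and -0.87 (SE 0.12) in the same order, so h1 had the smallest of the 4.

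The other partners of BiP had smaller shifts. Dnajb11 encodes an Hsp40 co-chaperone that delivers unfolded chains to BiP. It was at 57.8, 63.6 and 68.4 TPM in C57BL/6J brain and at 41.3 to 53.6 TPM, median 45.9, in the 15 h1 to h4 brains, with log2 fold changes of -0.31 to -0.46. In cord Dnajb11 was at 52.0, 50.7 and 62.9 TPM in C57BL/6J and at 40.5 to 47.4 TPM in the mutants, with log2 fold changes of -0.25 to -0.35. Hyou1, which exchanges the nucleotide of BiP, was at 59.0, 62.9 and 71.7 TPM in C57BL/6J brain and at 46.0 to 58.3 TPM in the mutants, median 51.4. Its log2 fold changes were -0.21 to -0.36 in brain and -0.14 to -0.21 in cord, and in cord the h2 values for Hyou1 overlapped the controls.

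Hsp90b1 encodes GRP94, the ER member of the Hsp90 family, which folds integrins, Toll-like receptors and growth factors. It was at 307, 320.3 and 369 TPM in C57BL/6J brain and at 227 to 291 TPM, median 245, in the 15 mutants. Its brain log2 fold changes were -0.29 (SE 0.08), -0.34 (SE 0.08), -0.42 (SE 0.07) and -0.45 (SE 0.07) from h1 to h4. In cord Hsp90b1 was at 308, 277 and 364 TPM in C57BL/6J and at 232 to 297 TPM in the mutants, with log2 fold changes of -0.22 to -0.34. The h2 cords overlapped the controls and those of the other 3 alleles did not.

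Manf and Creld2 encode small proteins held in the ER and secreted under stress, Manf being a binding partner of BiP with trophic activity on neurons. Manf was at 109.8, 97.7 and 138 TPM in C57BL/6J brain and at 59.0 to 85.6 TPM, median 80.0, in the 15 mutants. Its log2 fold changes were -0.46, -0.48, -0.53 and -0.58 in brain from h1 to h4 and -0.33, -0.39, -0.53 and -0.51 in cord. Creld2 was at 21.1, 17.4 and 23.7 TPM in C57BL/6J brain and at 10.97 to 14.5 TPM in the mutants. Its log2 fold changes were -0.59, -0.60, -0.75 and -0.65 in brain and -0.31, -0.29, -0.64 and -0.46 in cord, in the same order of alleles, nearer 0 in cord in each.

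Pdia4 and Pdia6 are protein disulfide isomerases, which form and rearrange disulfide bonds, and Calr (calreticulin) is the soluble lectin chaperone that holds glycoproteins and stores calcium. Pdia4 was at 44.7, 40.7 and 53.3 TPM in C57BL/6J brain and at 28.9 to 37.2 TPM in the 15 mutants, with log2 fold changes of -0.36 to -0.62. In cord the Pdia4 log2 fold changes were -0.21 to -0.40. Pdia6 was at 88.7, 91.4 and 111 TPM in C57BL/6J brain and at 61.4 to 80.3 TPM in the mutants, with log2 fold changes of -0.38 to -0.58 in brain and -0.27 to -0.43 in cord. Calr was at 378, 377 and 439 TPM in C57BL/6J brain and at 261 to 364 TPM in the mutants, with log2 fold changes of -0.32 to -0.46 in brain and -0.28 to -0.44 in cord. In brain all 3 genes were below the controls in every mutant library, and in cord the h2 group overlapped.

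**Figure D2:**
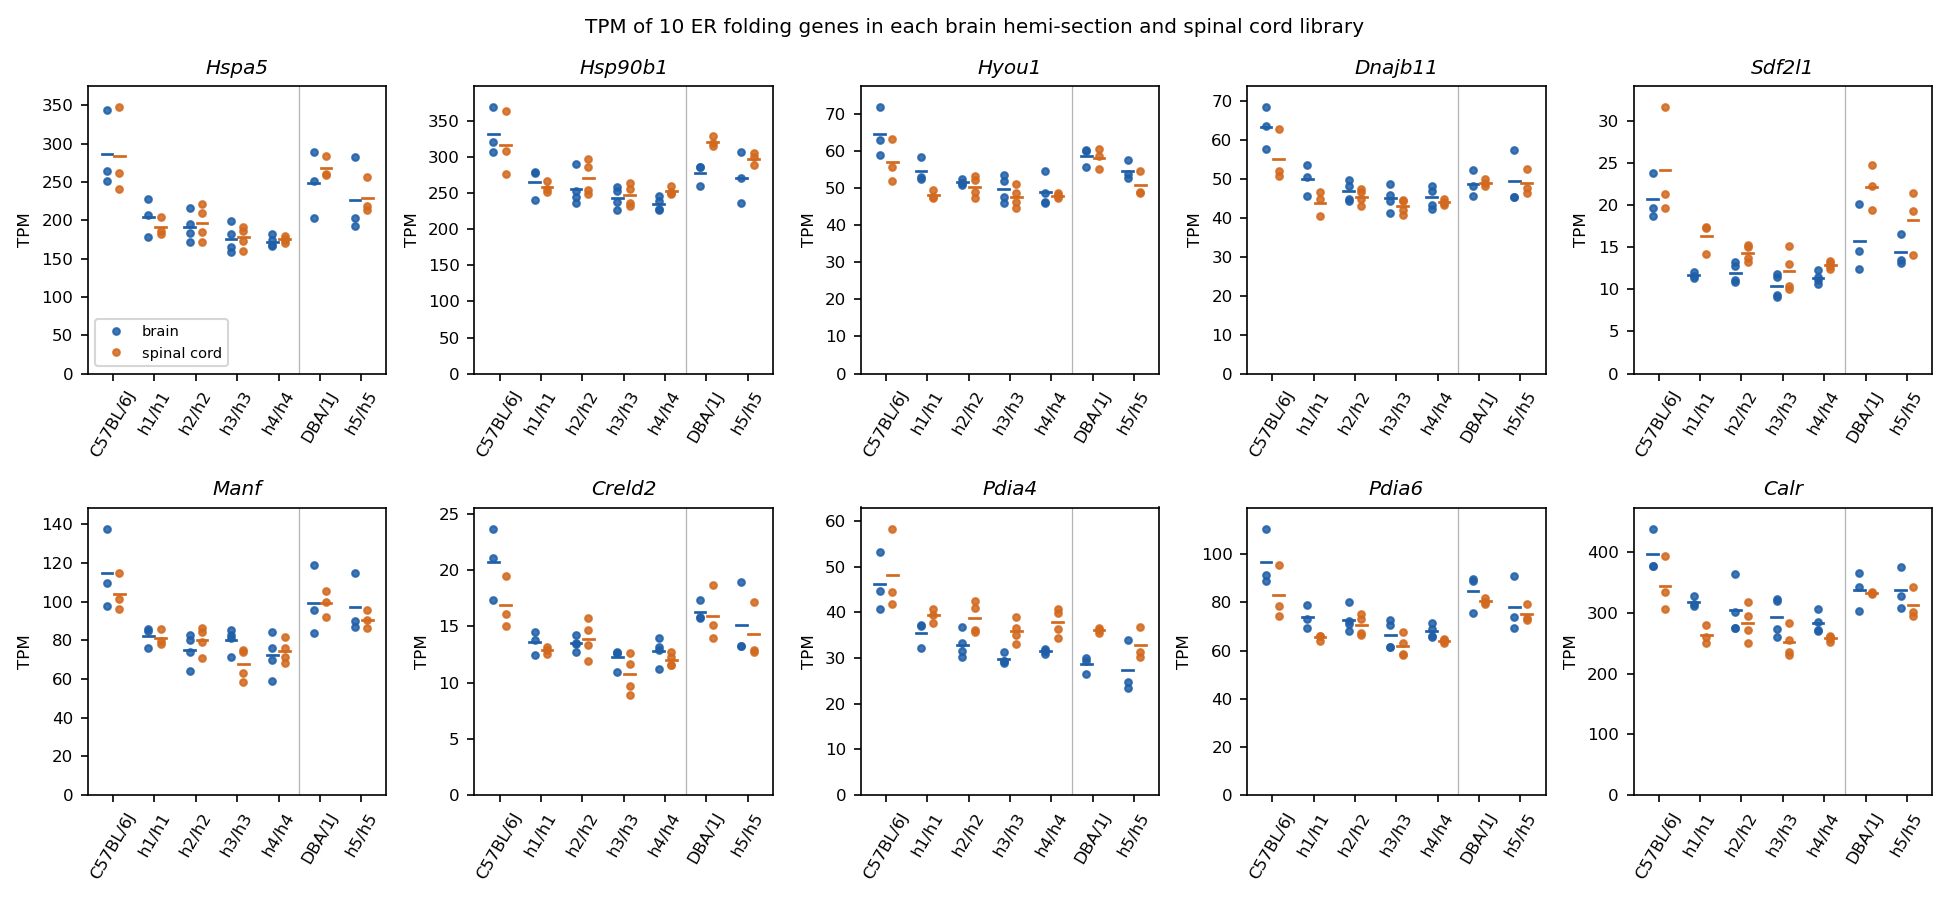
TPM of each gene (vertical axes, from 0) in every brain hemi-section (blue) and spinal cord (orange) library, by genotype on the horizontal axis; points are libraries, short lines are group means, and a grey line parts the C57BL/6J alleles from the DBA/1J groups. For Hspa5 the 15 h1 to h4 brains sit between 158 and 227 TPM, below the 3 C57BL/6J brains at 251 to 344 TPM, while h5 overlaps DBA/1J.

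The number of listed genes called lower (adjusted p of 0.05 or less, edgeR) differed by allele, and since these contrasts chose the list nothing is read from the counts. In brain 0 of the 10 genes were called in h1 (0% of all genes), 2 in h2 (0.102%), 9 in h3 (0.113%) and 9 in h4 (0.467%). The 2 called in h2 brain were Dnajb11 and Sdf2l1, Manf was the gene not called in h3, and Creld2 the gene not called in h4. For the count of 0 in h1 brain, 10 genes had an unadjusted p under 0.05 in edgeR (4.23% of all genes) and DESeq2 called 6. In cord 1 gene was called in h1 (Manf, 0.162% of all genes), 7 in h2 (1.21%), 9 in h3 (0.674%) and 9 in h4 (1.19%). Leaving out 1 replicate moved the brain count to 0 to 5 in h2 and 0 to 9 in h3, with 0 in h3 without h3 replicate 2 or 3, and the replicate block gave 0 in both. On log2 TPM, with pseudocounts of 1 and 0.1, limma called 0 in each cord of h1 to h4 and in h1 and h2 brain, 0 and 1 in h3 brain and 1 and 2 in h4 brain. Hyou1 was not called in h2 or h3 cord, Pdia4 not in h4 cord, and Creld2 and Hsp90b1 not in h2 cord.

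By TPM alone, all 10 genes lay wholly below the controls in brain in h1, h2, h3 and h4, where 5.57%, 5.04%, 4.34% and 6.39% of all genes with a mean of at least 1 TPM did so. In cord 10 genes lay wholly below in h1 (23.6% of all genes), 4 in h2 (4.54%), 10 in h3 (6.65%) and 10 in h4 (8.55%). The 4 in h2 cord were Hspa5, Dnajb11, Sdf2l1 and Manf. The median log2 fold change over the 10 genes was -0.37, -0.44, -0.55 and -0.51 in brain from h1 to h4 and -0.27, -0.29, -0.43 and -0.38 in cord, against medians over all genes tested of -0.0031 to 0.0050. Without C57BL/6J replicate 3, the only male control and the highest for all 10 genes in both tissues, these medians were -0.26, -0.34, -0.44 and -0.39 in brain and -0.18, -0.20, -0.34 and -0.28 in cord. Hspa5 without that mouse was at -0.32 in h1 brain and -0.26 in h1 cord, lower by less than with it but in the same direction.

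**Figure D3:**
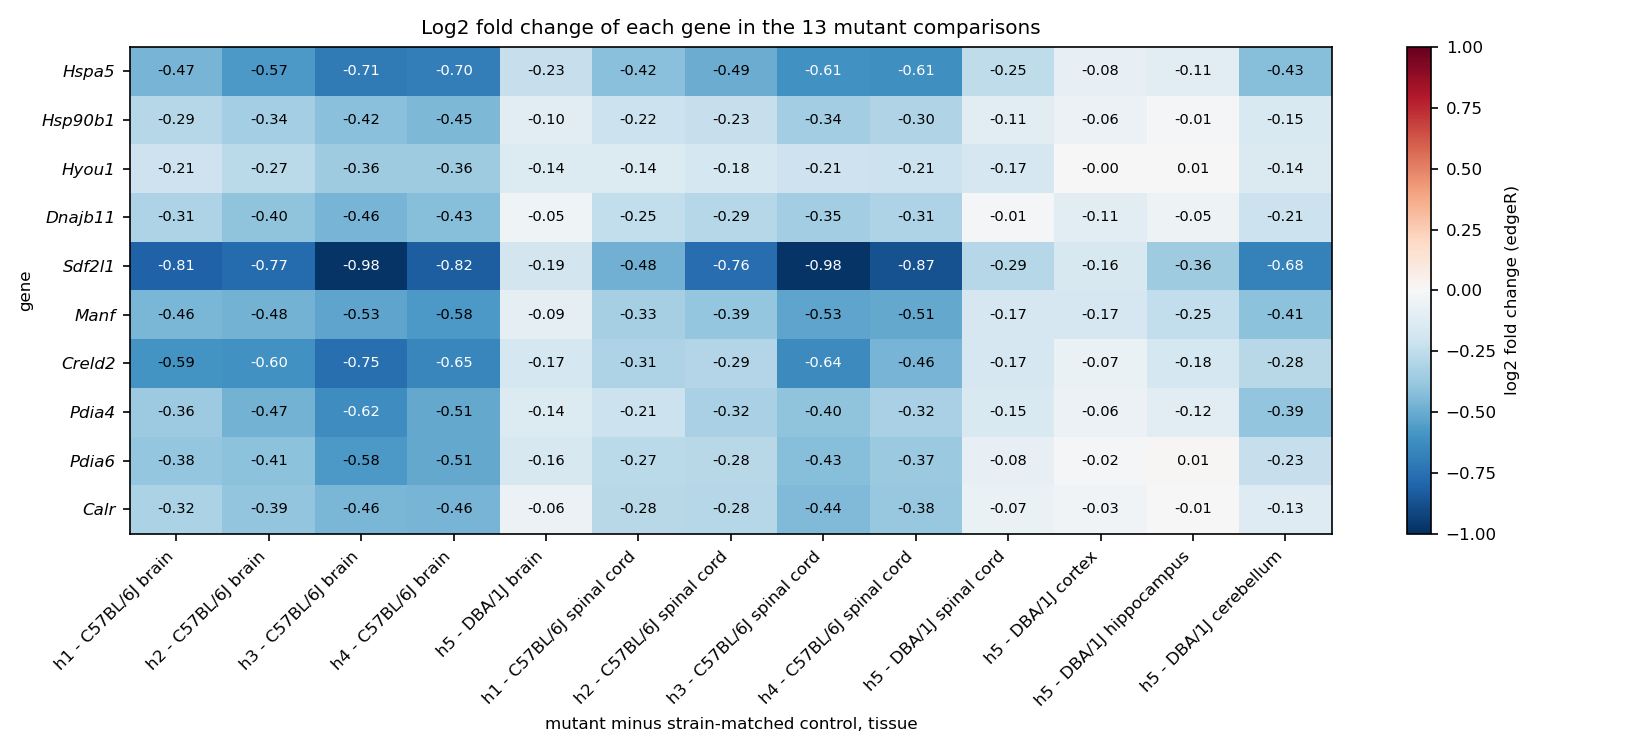
Log2 fold change (edgeR, colour scale and printed value) of each gene, in rows, in the 13 comparisons of a mutant with its strain-matched control, in columns; blue is lower in the mutant. Values for h1 to h4 run from -0.98 for Sdf2l1 to -0.14 for Hyou1, those for h5 in brain, cord, cortex and hippocampus from -0.36 to 0.01, and those for h5 in cerebellum from -0.68 for Sdf2l1 to -0.13.

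In h5 on DBA/1J the log2 fold changes of the listed genes ran from -0.23 to -0.05 in brain and from -0.29 to -0.01 in cord. Their medians, -0.14 in brain and -0.16 in cord, were nearer 0 than in h1 to h4. This did not hold for every gene, since Hyou1 reached -0.17 among the h5 tissues, against -0.14 in h1 cord. Hspa5 was at 251, 289 and 203 TPM in DBA/1J brain and at 204, 192 and 283 TPM in h5 brain, so the groups overlapped, and its log2 fold change was -0.23 (SE 0.13). The Sdf2l1 log2 fold change in that tissue was -0.19 (SE 0.17), with DBA/1J at 12.4, 20.1 and 14.6 TPM and h5 at 13.1, 13.5 and 16.5 TPM. That sign for Sdf2l1 was not stable, at 0.061 with the identifier series as a block and 0.026 without DBA/1J replicate 2. In h5 brain 0 of the 10 genes were called lower (0% of all genes), 1 had an unadjusted p under 0.05 in edgeR (5.80% of all genes) and DESeq2 called 0, and 0 lay wholly below the controls (1.84% of all genes). Without DBA/1J brain replicate 1 the count was again 0, the median over the genes -0.13 against -0.14, Hspa5 at -0.23 as before, and Sdf2l1 at -0.33. The 4 cerebellum markers summed to 516.5 to 570.9 TPM in h5 brain, above all 3 DBA/1J libraries, and 4 ependymal markers to 34.2 to 38.1 TPM against 21.9 to 30.3 TPM, also above. The part of tissue composition in the brain values was not tested.

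In spinal cord Hspa5 was at 260.0, 283 and 259 TPM in DBA/1J and at 218, 214 and 257 TPM in h5, just below the controls. Its log2 fold change was -0.25 (SE 0.09) and that of Sdf2l1 -0.29 (SE 0.17). Of the 10 genes, 0 were called lower (0.00581% of all genes), 3 had an unadjusted p under 0.05 (8.90% of all genes) and DESeq2 called 0. Hspa5, Hsp90b1 and Hyou1 lay wholly below DBA/1J (4.64% of all genes). Meningeal fibroblast markers in these cords summed to 47.2 to 388 TPM against 40.9 to 59.2 TPM in DBA/1J, and their part was not tested. Whether the shift of h5 on DBA/1J differs from those of the other alleles on C57BL/6J was not tested.

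By their labels the dissected regions came from other h5 and DBA/1J mice. In cortex Hspa5 was at 183, 229 and 249.1 TPM in DBA/1J and at 219.7, 185 and 236 TPM in h5, a log2 fold change of -0.08 (SE 0.13). In hippocampus it was at 195, 236 and 280.4 TPM in DBA/1J and at 243, 171 and 271 TPM in h5, a log2 fold change of -0.11 (SE 0.16). The groups overlapped in both regions. In cerebellum Hspa5 was at 273, 406 and 502 TPM in DBA/1J and at 276, 228 and 390.2 TPM in h5, a log2 fold change of -0.43 (SE 0.22), with overlap. Sdf2l1 in cerebellum was at 15.1, 29.0 and 35.2 TPM in DBA/1J and at 15.7, 10.4 and 24.7 TPM in h5, a log2 fold change of -0.68 (SE 0.34). Pdia4 there was at 35.0, 43.8 and 48.4 TPM in DBA/1J and at 32.4, 29.2 and 36.4 TPM in h5, a log2 fold change of -0.39 (SE 0.12) with an unadjusted edgeR p of 0.010.

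By edgeR 0 of the 10 genes were called in cortex (0% of all genes), hippocampus (0.0118%) or cerebellum (0.012%). Unadjusted p fell under 0.05 for 0, 0 and 1 of the genes (6.42%, 4.22% and 5.62% of all genes), the last being Pdia4, and DESeq2 called 0 in each. In cerebellum all 10 log2 fold changes were below 0, from -0.68 to -0.13, with a median of -0.25 and adjusted p of 0.82 to 0.94, and the median was -0.06 in cortex and -0.08 in hippocampus. Leaving out 1 library moved the median to -0.38 to -0.12, Hspa5 to -0.66 to -0.21 and Sdf2l1 to -1.05 to -0.38, nearest 0 without DBA/1J replicate 3 and, for both genes, farthest without h5 replicate 3, whose labelled sex the data go against. The spread among wild-type cerebella was wide, from 273 to 502 TPM for Hspa5. In the same libraries 9 choroid plexus markers summed to 2588 to 3751 TPM in DBA/1J cerebellum and 22.4 to 2057 TPM in h5 cerebellum, and their part in these values was not tested. In h5 cortex the 4 ependymal markers were above DBA/1J as well, at 22.5 to 23.9 TPM against 15.7 to 19.6 TPM. The 4 cerebellum markers were wholly above DBA/1J in h5 cerebellum, at 3599 to 3689 TPM against 3446 to 3591 TPM, and in h5 cortex, at 7.07 to 9.53 TPM against 4.32 to 6.87 TPM, and their part was not tested either.

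Among wild-type tissues Hspa5 was highest in DBA/1J cerebellum, at 394 ± 115 TPM (SD, n = 3). C57BL/6J brain (286 ± 50.4 TPM) and cord (283 ± 56.4 TPM) followed, then DBA/1J cord (268 ± 13.5 TPM), DBA/1J brain (248 ± 43.1 TPM, or a mean of 246 without replicate 1), hippocampus (237 ± 43.0 TPM) and cortex (221 ± 33.7 TPM). Neighbours in this order differed by less than their spread. In TPM, which is scaled to length, Calr was the most abundant of the list in every wild-type group but cerebellum, where Hspa5 (394 TPM) and Calr (393 TPM) were level, and Sdf2l1 and Creld2 were the least abundant in all 7. Sdf2l1 was at 26.4 TPM in cerebellum and 14.1 TPM in cortex, Manf at 172 TPM in cerebellum and 94.1 TPM in cortex, while Pdia6 was level between these regions, at 79.3 TPM in cerebellum and 79.9 TPM in cortex.

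**Figure D4:**
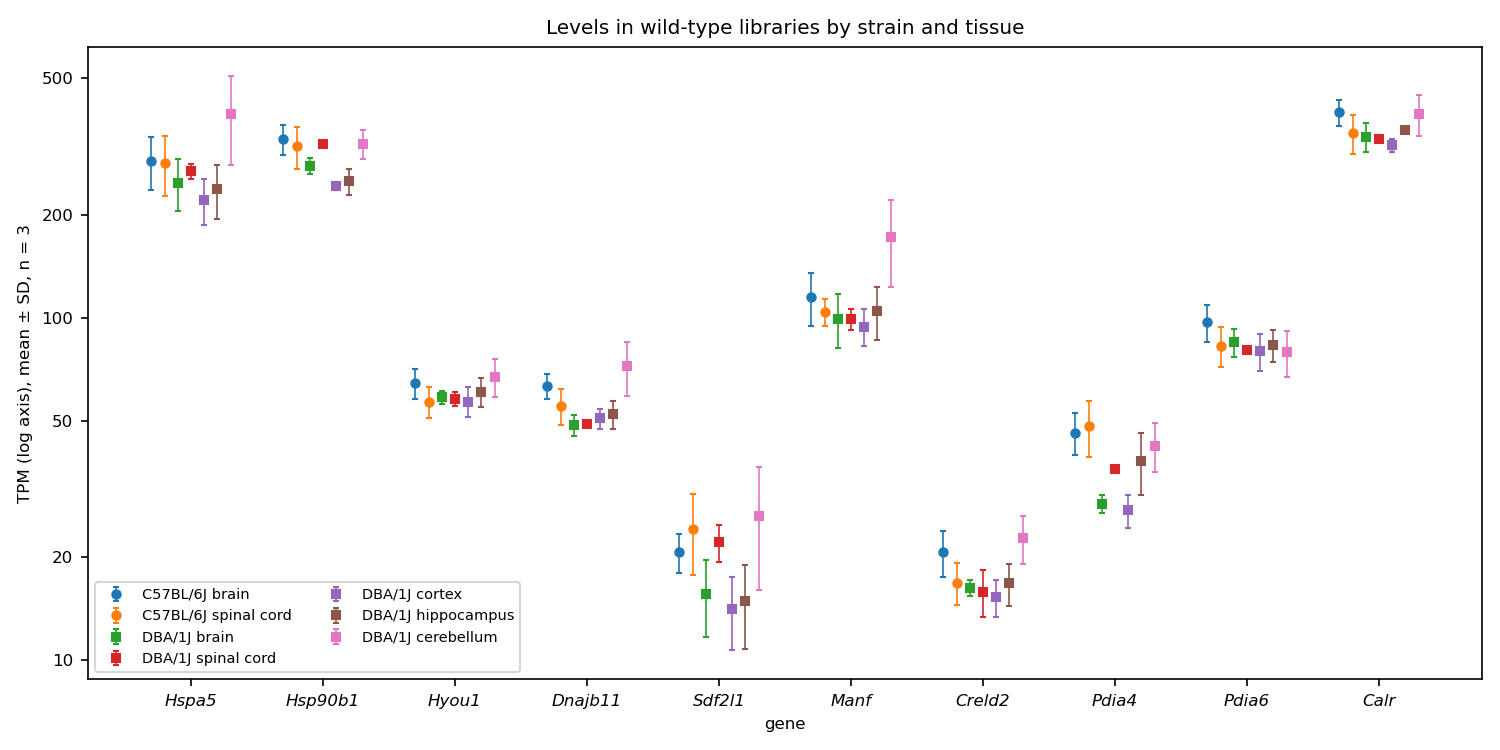
Mean TPM (log axis) with SD, n = 3, of each gene in the 7 wild-type groups; circles are C57BL/6J and squares DBA/1J. Calr sits at the top in each group except cerebellum, where Hspa5 reaches 394 TPM, Sdf2l1 and Creld2 sit at the bottom in all, and cerebellum is highest for Hspa5, Manf and Sdf2l1.

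Cerebellum and cortex came from the same DBA/1J mice. Scaling matters here, since over all genes the cerebellum and cortex difference was a median of 0.23 higher on the log2(TPM + 1) scale than on the edgeR scale. In edgeR 2 of the 10 genes were called between them (58.1% of all genes were), Hspa5 at a log2 fold change of 0.59 (SE 0.19, adjusted p = 0.025) and Pdia4 at 0.39 (SE 0.12, adjusted p = 0.022). With the animal as a block, a paired fit, 6 were called (57.3% of all genes): Hspa5, Sdf2l1, Manf, Creld2 and Pdia4 higher in cerebellum and Pdia6 lower on the edgeR scale, with Hspa5 at 0.55 (edgeR, adjusted p = 0.0023) and Pdia6 at -0.27 (adjusted p = 0.021). On log2(TPM + 1), an alternative chosen after seeing the data, limma called 7 (61.6% of all genes), all higher, with Hspa5 at 0.80 (adjusted p = 0.013) and Pdia6 at -0.02 and not called. Leaving out cortex replicate 2 or cerebellum replicate 2 left 0 called, and leaving out cerebellum replicate 1 gave 6. Between hippocampus and cortex only Pdia4 was called (20.6% of all genes; 22.2% in the paired fit), higher in hippocampus by 0.42 (SE 0.13, adjusted p = 0.047 in edgeR; 0.017 paired). Pdia4 was at 23.9, 28.6 and 29.7 TPM in cortex and at 33.2, 34.4 and 47.2 TPM in hippocampus, with no overlap. Without any 1 of cortex replicates 1 and 2 or the 3 hippocampus libraries this call was lost, at 0.26 to 0.51, and so on log2(TPM + 1), at 0.45. In DBA/1J the 9 choroid plexus markers summed to 23.2 to 889 TPM in cortex, 1514 to 6286 TPM in hippocampus and 2588 to 3751 TPM in cerebellum, and their part in the higher values of the latter regions was not tested.

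Spinal cord against brain was also a comparison within mice, given as a description since these libraries entered the choice of the list. In C57BL/6J 0 of the 10 genes were called by edgeR (56.9% of all genes were), with log2 differences of -0.28 to 0.24, 3 had an unadjusted p under 0.05 (61.1% of all genes) and DESeq2 called 2. Without brain replicate 2 the edgeR count was 4 and without cord replicate 3 it was 5. With the animal as a block 7 were called (55.7% of all genes), of which Hyou1, Dnajb11, Manf, Creld2, Pdia6 and Calr were lower in cord and Sdf2l1 higher. Among them Manf was at -0.22, Pdia6 at -0.21 and Sdf2l1 at 0.24. In DBA/1J 2 genes were called (50.8% of all genes), Hsp90b1 at 0.17 (SE 0.06) and Pdia4 at 0.30 (SE 0.06), both higher in cord. The paired fit called 3 (50.8% of all genes), adding Sdf2l1 at 0.48. Without DBA/1J brain replicate 1 the count stayed at 2, with Hsp90b1 at 0.19 and Pdia4 at 0.34. The paired fit without that mouse called 3 (52.3% of all genes), with Sdf2l1 at 0.32, Hsp90b1 at 0.20 and Pdia4 at 0.35. Hsp90b1 lost its call without brain replicate 3 or cord replicate 1 or 2, at 0.12 to 0.18.

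Between the wild-type strains, the C57BL/6J libraries being those whose level entered the choice of the list, 10 of the 10 genes were lower in DBA/1J brain and 9 of 10 in DBA/1J cord. In brain 2 were called (11.2% of all genes were called by edgeR). Pdia4 was at 30.0, 29.4 and 26.6 TPM in DBA/1J brain against 44.7, 40.7 and 53.3 TPM in C57BL/6J brain, a log2 difference of -0.64 (SE 0.11). Dnajb11 was at 45.6, 52.3 and 48.2 TPM in DBA/1J brain against 57.8, 63.6 and 68.4 TPM, a log2 difference of -0.31 (SE 0.07). Without DBA/1J brain replicate 1 only Pdia4 was called, at -0.68, and Dnajb11 also lost its call without C57BL/6J replicate 1 or 3 or DBA/1J replicate 3, at -0.25 to -0.33. In cord 1 gene was called (21.3% of all genes), again Pdia4, at 35.6, 36.1 and 36.7 TPM in DBA/1J against 44.5, 41.8 and 58.3 TPM in C57BL/6J, a log2 difference of -0.42 (SE 0.09), and it was not called on log2(TPM + 1), at -0.39. Hspa5 was at -0.16 (SE 0.14) in brain, -0.17 without DBA/1J brain replicate 1, and at -0.03 in cord. DBA/1J wild-type brains, at 26.6 to 30.0 TPM, thus lay near or below the 28.9 to 37.2 TPM of the h1 to h4 brains for Pdia4, while for Hspa5 they lay at 203 to 289 TPM against 158 to 227 TPM.

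The 4 alleles on a C57BL/6J background were also compared with each other, without the shared controls, on libraries that entered the choice of the list. All 10 genes were lower in h3 and in h4 than in h1 in both tissues, as signs of fitted differences. In brain 0 of the 10 were called among the alleles (0.251% of all genes were called by edgeR), 5 had an unadjusted p under 0.05 (6.43% of all genes) and DESeq2 called 1. The Hspa5 difference in brain was -0.24 for h3 minus h1 and -0.22 for h4 minus h1. In cord 1 was called, Pdia6 (2.74% of all genes). With sex as a covariate 0 were called, and so without h1 replicate 1 or 2, h2 replicate 1 or 2 or h3 replicate 1 or 4. Pdia6 was at 66.3, 66.2 and 64.0 TPM in h1, at 73.2, 75.2, 67.4 and 66.4 TPM in h2, at 58.3, 67.9, 58.7 and 63.2 TPM in h3 and at 63.2, 64.3, 63.9 and 64.6 TPM in h4. Pairwise in cord, Sdf2l1 was lower in h3 than in h1 by -0.50 (SE 0.11) and Pdia6 by -0.16 (SE 0.04), where 1.2% of all genes were called, and Pdia6 was lower in h3 than in h2 by -0.14 (SE 0.03), where 1.45% were. Hspa5 in h3 minus h1 cord was -0.18 (SE 0.05).

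The shift in brain was also set against that in cord of the same mice, over h1 to h4. No test of it is given, since it rests on the contrasts that chose the list. All 10 estimates were more negative in brain, from -0.22 for Creld2 and -0.18 for Pdia4 to -0.07 for Manf and Calr. For Hspa5 the difference was -0.09.

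Between males and females, with genotype in the model, the 10 genes differed by -0.01 to 0.08 on the log2 scale in brain and by 0.02 to 0.11 in cord. By edgeR 0 were called in brain (0.0855% of all genes) and 0 in cord (0.146%), 0 had an unadjusted p under 0.05 in either and DESeq2 called 0 in both.

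From mouse to mouse within a group, the 10 genes deviated together. Each library's deviation from its group mean, averaged over the 10 genes on the log2 scale, was set against that of the other tissue of the same mouse. Over 24 mice the brain and cord deviations had a Pearson r of 0.93 and a Spearman rho of 0.89, and 23 of the 24 mice had the same sign in both tissues. Without the 2 mice farthest from the median in brain r was 0.89 and rho 0.86. Within the 15 h1 to h4 mice r was 0.79 and rho 0.75. Without DBA/1J brain replicate 1, over 23 mice, r was 0.93 and rho 0.91. These values are given as a description, since the paired points share a mouse, its handling and its group mean.

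Gene by gene, the brain and cord deviations of the same 24 mice had an r of 0.94 for Calr, 0.91 for Hspa5, 0.81 for Pdia6, 0.77 for Hyou1 and Hsp90b1, 0.70 for Dnajb11, 0.68 for Pdia4, 0.59 for Manf, 0.48 for Creld2 and 0.30 for Sdf2l1. Over 19491 genes the median r was 0.05, and 4.89% were above 0.5. Without DBA/1J brain replicate 1 the values for the listed genes ran from 0.37 for Sdf2l1 to 0.94 for Calr. C57BL/6J replicate 3 stood 0.20 above its group in brain and 0.21 in cord, and C57BL/6J replicate 2 0.18 and 0.17 below. Among the dissected regions, DBA/1J mouse 1 deviated by -0.12 in cortex, -0.13 in hippocampus and -0.35 in cerebellum, and h5 mouse 2 by -0.18, -0.24 and -0.22. Of the 6 regional mice, 4 had the same sign in all 3 regions.

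**Figure D5:**
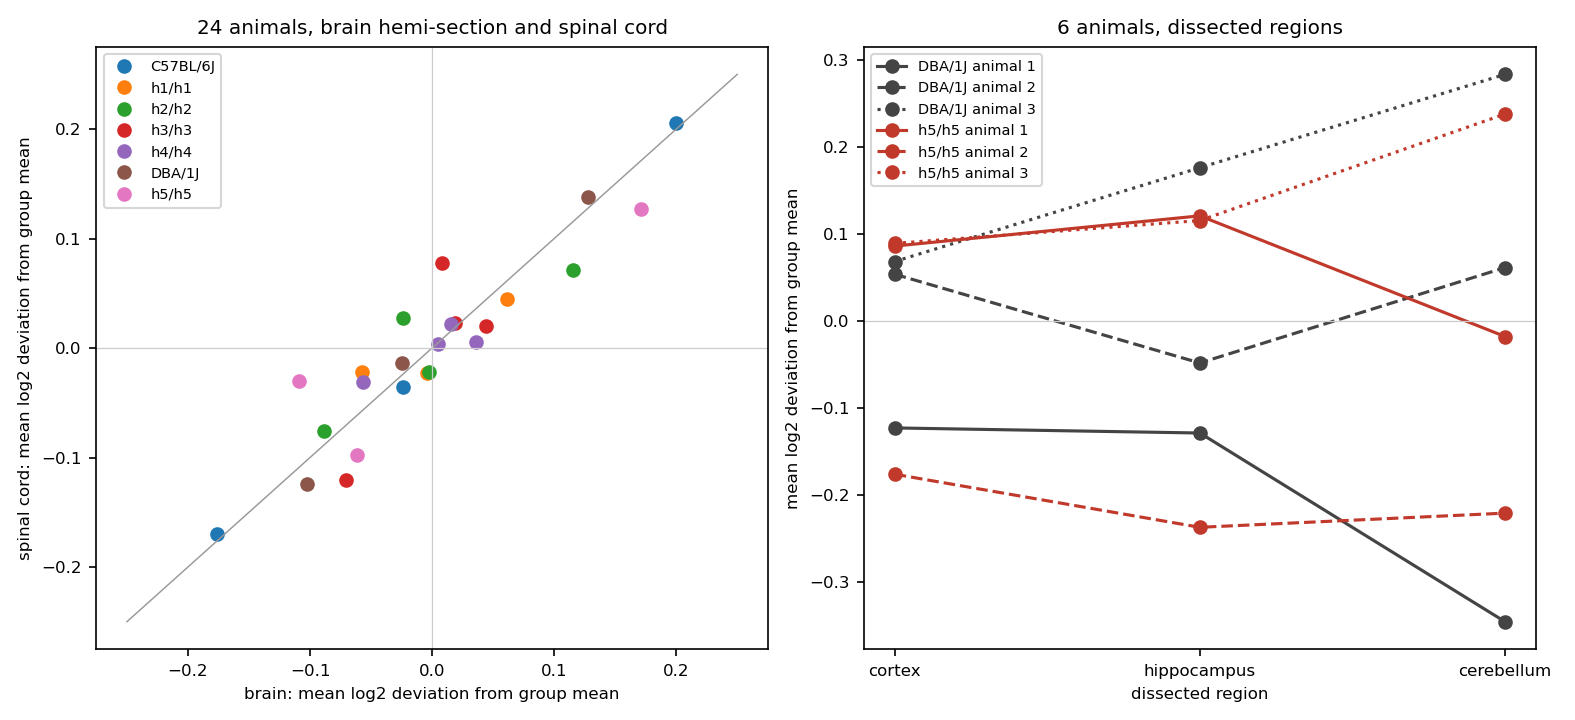
Left, mean log2 deviation of the 10 genes from the group mean in brain (horizontal) and spinal cord (vertical) for 24 mice, coloured by genotype, with the line of equality. Right, the same quantity in cortex, hippocampus and cerebellum of 6 other mice, with lines joining the regions of 1 mouse; C57BL/6J replicate 3 is the point farthest right and highest on the left, at 0.20 and 0.21.

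Over all 66 libraries and 19860 genes, again as deviations from group means, the genes whose pattern was most like Hspa5 were Manf (r = 0.93), Pdia6 (0.89), Xbp1 (0.88), Hyou1 (0.88), Pdia3 (0.87), Pdia4 (0.87), Sdf2l1 (0.86), Arid5b (0.82), Hsp90b1 (0.82) and P4ha1 (0.81). Of these 10, 6 are listed genes, and the median r of all genes was -0.01. Over the 48 brain and cord libraries alone, 7 of these 10 were again among the 10 most like Hspa5. Mlec, which is not listed, then ranked 1 (0.86), Pdia4 2 (0.85), Manf 6 (0.83), Xbp1 12 (0.78) and Sdf2l1 27 (0.67). Over all libraries Dnajb11 ranked 17 and Calr 18, both at 0.76, and Creld2 ranked 34 at 0.70. The 45 pairs of listed genes had r from 0.49, for Creld2 with Calr, to 0.93, with a median of 0.75 and none negative. Over the 65 libraries without DBA/1J brain replicate 1 the same 10 genes were most like Hspa5, Manf again at 0.93, and the pairs ran from 0.49 to 0.93. Libraries of 1 mouse are not independent of each other, so these correlations describe the data and carry no p. The SD of the deviations was largest for Sdf2l1 (0.30) and Hspa5 (0.20) and smallest for Hyou1 (0.097) on the log2 scale.

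Of 24 other ER folding genes, at most 2 were called in a mutant comparison, and the comparisons share the C57BL/6J controls. Pdia3, a disulfide isomerase that works with calreticulin, was called lower in h3 brain at -0.36 (adjusted p = 0.040 in edgeR), in h4 brain at -0.38 (adjusted p = 0.015), and in h3 and h4 cord at -0.30 and -0.24. Dnajc3, a BiP co-chaperone, was called lower in h4 brain at -0.31 and in h2, h3 and h4 cord at -0.24, -0.27 and -0.32. The called counts were 0, 0, 1 and 2 of 24 in brain from h1 to h4, none higher (0%, 0.102%, 0.113% and 0.467% of all genes were called lower). In cord they were 0, 1, 2 and 2, none higher (0.162%, 1.21%, 0.674% and 1.19% of all genes). Their summed TPM was wholly below C57BL/6J in h3 brain (1100 to 1191 against 1203 to 1311), in h4 brain (1047 to 1176), and, against 1343 to 1430 in cord, in h1 (1231 to 1255), h3 (1211 to 1340) and h4 (1244 to 1303). Of all genes with a mean of at least 1 TPM, 23.6% lay wholly below the controls in h1 cord. In h3 and h4 cord 6.65% and 8.55% did, and in h3 and h4 brain 4.34% and 6.39%. The median log2 fold change of those genes was about -0.06 in brain and -0.04 to -0.07 in cord, against -0.27 to -0.55 for the 10 listed genes, whose values chose them.

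Among 14 regulators of the unfolded protein response, Xbp1 was called lower in h3 brain at -0.46 (adjusted p = 0.008 in edgeR), in h4 brain at -0.39 (adjusted p = 0.012) and in h3 cord at -0.44 (adjusted p = 0.031). In the other 5 comparisons of these alleles Xbp1 was at -0.29 to -0.36 and was not called. Atf4, Atf6 and Ddit3 were not called in any of the 8. The summed TPM of the 14 regulators was wholly below C57BL/6J in brain (470 to 500.4) in h1 (423 to 453), h2 (433 to 462) and h3 (413 to 468), and in h1 cord (347 to 360 against 371 to 421). Of 18 genes of ER translocation and degradation, Herpud1, which serves the degradation complex, was called in h4 brain at -0.26 (adjusted p = 0.038), and the sum of the 18 was wholly below in h1 cord (976 to 1007 TPM against 1014 to 1116). Sums below the controls in h1 cord stand beside the 23.6% of all genes that were wholly below there. Of 11 paralogs and relatives outside the inducible set 0 were called in the mutant comparisons, and Hspa8, the cytosolic counterpart of BiP, was at -0.18, -0.18, -0.24 and -0.32 in brain from h1 to h4. The sum of the 11 was wholly below the controls in h4 brain (3403 to 3688 TPM against 3916 to 4483), in h1 cord (3978 to 4058 against 4156 to 4975) and in h5 cord (4304 to 4401 against 4555 to 4734).

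Other measured quantities moved with the listed genes in part of the comparisons. The summed TPM of 7 glucocorticoid-induced genes was 209.9 to 223.5 in C57BL/6J brain, against 166.5 to 202.2 in h1, 177.1 to 199.2 in h2 and 156.0 to 200.6 in h4, all below, and 159.4 to 223.4 in h3, which overlapped. In cord that sum was 287.0 to 358.7 in C57BL/6J and lay below it in h1 (246.0 to 283.1) and h4 (229.7 to 251.7), with overlap in h2 and h3. By TPM, 23.6% of all genes lay wholly below the controls in h1 cord and 8.55% in h4 cord. Of those 7 genes, 0, 1, 1 and 1 were called lower in brain from h1 to h4 (0%, 0.102%, 0.113% and 0.467% of all genes). In cord 0, 3, 2 and 3 were (0.162%, 1.21%, 0.674% and 1.19% of all genes). The summed TPM of 5 neuron markers in cord was 2388 to 2493 in C57BL/6J and below it in h1 (2139 to 2230), h2 (2211 to 2323) and h4 (2193 to 2355). Of the 5 neuron markers 0, 2 and 2 were called lower there (0.162%, 1.21% and 1.19% of all genes). The 9 choroid plexus markers, from a secretory epithelium rich in ER, overlapped between mutants and controls in every comparison of brain and cord, and in cord they summed to 10.2 to 12.8 TPM in C57BL/6J and 8.36 to 13.4 TPM in h1 to h4.

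Markers of other cell types also separated in some groups. The 5 astrocyte markers were below the controls in h4 brain, at 1632 to 1828 TPM against 1867 to 2031 TPM, and in h1 cord, at 3374 to 3430 TPM against 3453 to 3646 TPM. Single genes wholly below the controls were 6.39% of all in h4 brain and 23.6% in h1 cord. The 5 endothelial markers were below in h2 brain, at 206 to 220 TPM against 223 to 257 TPM, and in h4 cord, at 196 to 214 TPM against 222 to 242 TPM. The 5 microglia markers were above in h3 cord, at 182 to 207 TPM against 169 to 179 TPM. Oligodendrocyte, meningeal fibroblast and blood markers overlapped in each mutant comparison. h1 mice share an identifier series with the C57BL/6J controls and those of the other 3 alleles do not. The part of these quantities in the lower values of Hspa5 and the other listed genes was not tested.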

How the data were processed

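Polyadenylated RNA of 66 tissue samples was sequenced. The authors checked reads with FastQC, trimmed them with Trim Galore, aligned them with STAR to GRCm38 (mm10) and quantified genes with RSEM, and the deposited files hold 1 expected count and 1 TPM per gene and library. Of the non-zero expected counts 10.6% were not whole, because RSEM divides reads shared by similar genes, and they were rounded to whole numbers first. TPM, scaled by the authors to transcript length and library, gives the levels, with no precision of its own, and total counts of 32889755 to 59120536 per library keep counting error small beside the spread between mice. Symbols came from the reference table for 41407 of 45706 identifiers.

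Groups came from the labels. The members and lists were chosen with earlier results of these data known. Each comparison was fitted with edgeR 4.0.16 in R 4.3.3 (TMM, filterByExpr, quasi-likelihood test) on its own libraries, with Benjamini-Hochberg adjustment over all genes tested at 0.05. The brain and cord interaction had the mouse as a block, and the sex term had genotype in the model. Alternatives were DESeq2 1.42.0, edgeR with DESeq2 scaling, testing without the filter on low counts, adding sex, adding a replicate block, limma 3.58.1 on log2(TPM + 1) and log2(TPM + 0.1), the identifier series for h5, and leaving out each replicate. After seeing the data, limma on log2(TPM + 1) was added for the wild-type comparisons, and values without DBA/1J brain replicate 1. All 10 members were named, and of other lists at most the 3 called genes with the largest change per comparison, and paralogs. The procedure was tested on simulated data, where false calls took more than the nominal share in both edgeR and DESeq2, and more in DESeq2. Of 78 replicate pairs 0 held identical values, and p-values cover the spread between these mice. Same-numbered samples are the same mouse in the wild-type tissue comparisons, which pairs them. Between genotypes a number is shared by different mice, and the deviations of same-numbered mice correlated above 0.1 in every pair only in h1 brain (0.11 to 0.20), where the replicate block called 0 members, as without it. RefSeq promoters of GRCm38.p6 matched 8 of 10 members by symbol, and no protein sequence was used here.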

Additional observations from a re-analysis of the deposited data

Results flagged for a closer look

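Creld2 in h3 brain replicate 4, at 10.97 TPM, lay far below the other 3 libraries of its group, at 12.6 to 12.7 TPM. It was the only one of 60 sets of 4 values for the listed genes with an extreme sample by Dixon's criterion, and chance gives about 5% of such sets. In cord, Sdf2l1 in h3 minus h1 (-0.50), Pdia6 in h3 minus h1 (-0.16) and Pdia6 in h3 minus h2 (-0.14) passed the threshold of edgeR for the difference between 2 alleles. These libraries entered the choice of the list, so the values are a description, and with sex as a covariate 0 listed genes were called among the alleles in cord.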

How the results depend on the processing

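Over 1100 refits of single members in the 8 comparisons with C57BL/6J every log2 fold change stayed below 0 (from -1.10 to -0.07), of which 809 kept their side of the threshold, 208 lost a call and 83 gained one. The refits reused the libraries and shared controls that chose the list, so their common sign is a description only. Counts of members called moved more. DESeq2 called 6 in h1 brain, 10 in h2 brain, 3 in h1 cord, 2 between strains in cord, 2 for cord against C57BL/6J brain, 4 for cerebellum against cortex, and 1 and 4 among alleles in brain and cord. Without the low-count filter these were 7, 10, 9, 2, 6 and 4, with 3 among alleles in cord and 1 between sexes in cord. With sex as a covariate the counts were 0 in h2 brain, 7 in h1 cord, 5 and 4 between strains in brain and cord, and 0 among alleles in cord. With the replicate block they were 0 in h2 brain, 0 in h3 brain, 7 in h1 cord and 1 between strains in brain, and in the paired wild-type tissues 7 for cord against brain in C57BL/6J and 6 for cerebellum against cortex. On log2 TPM limma called, with pseudocounts of 1 and 0.1, 0 and 0 in h2 brain, 0 and 1 in h3 brain, 1 and 2 in h4 brain, and 0 and 0 in each cord of h1 to h4. In the wild-type comparisons, an alternative chosen after seeing the data, limma on log2(TPM + 1) called 0 between strains in cord, 0 for hippocampus and 7 for cerebellum against cortex, and turned the median for cord against brain in DBA/1J to 0.0095. With the identifier series as a block Sdf2l1 in h5 brain turned from -0.19 to 0.061.

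Leaving out single replicates moved the counts to 0 to 5 in h2 brain (5 without C57BL/6J replicate 2, 4 without h2 replicate 1, 0 without the others), 0 to 9 in h3 brain (0 without h3 replicate 2 or 3, 2 and 3 without C57BL/6J replicate 1 and 3), 7 to 10 in h4 brain, 0 to 6 in h1 cord (6 and 3 without C57BL/6J replicate 2 and 3, 0 without the others), 4 to 9 in h2 cord (4 without h2 replicate 3), 3 to 10 in h3 cord (3 without C57BL/6J replicate 1 or 3), 6 to 10 in h4 cord (6 without C57BL/6J replicate 1 or 3), 1 to 3 and 1 to 2 between strains in brain and cord, 0 to 5 and 1 to 3 for cord against brain in C57BL/6J and DBA/1J, 0 to 1 for hippocampus and 0 to 6 for cerebellum against cortex, and 0 to 2 among alleles in cord. Leaving out single replicates also turned some small differences: the median over members in h5 cortex (-0.13 to 0.0072), h5 hippocampus (-0.13 to 0.051), strains in cord (-0.16 to 0.029), cord against brain in DBA/1J (-0.071 to 0.046) and hippocampus against cortex (-0.054 to 0.10), Sdf2l1 in h5 brain (-0.33 to 0.026), and Hspa5 in h5 cortex (-0.18 to 0.025), h5 hippocampus (-0.23 to 0.051), strains in cord (-0.15 to 0.13, the latter without C57BL/6J replicate 3) and cord against brain in C57BL/6J (-0.21 to 0.083). The causes were not tested.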
